A study of Mus musculus with 12 samples.

Results

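The genes described here are 35 genes of protein folding and quality control in the endoplasmic reticulum (ER) and of the unfolded protein response, chosen by gene symbol. All 35 were present among the 24318 genes of the deposited table, and 34 of them passed the filter on low counts and were among the 12469 genes tested. Derl3, a Derlin of secretory cells, did not pass, with 1 to 8 fragments in each library. By role they were 4 ER Hsp70 and Hsp90 chaperones, 2 lectin chaperones, 8 protein disulfide isomerases and their oxidases, 4 ER J proteins, 3 secreted or luminal stress proteins, 7 genes of ER-associated degradation, 3 sensors and transcription factors, and 4 genes of the translocon and the TRAP complex.

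RNA with poly(A) tails was sequenced from immortalized mouse embryonic fibroblasts of the genotype MafF-/-::MafG-/-::MafK-/-, which lack the 3 small Maf proteins, and every group carried this deletion. Mock cells were set against cells that express T-N2G, a heterodimer of Nrf2 and MafG joined by a tether, and each was given vehicle or 100 µM diethyl maleate (DEM) for 12 h. The labels give 10% serum for every library. DEM is an electrophile that binds glutathione, and Nrf2 with a small Maf partner induces genes against such stress. Each of the 4 combinations of cells and treatment had 3 libraries, numbered 1 to 3 in the sample titles. The labels used here do not name the promoter that drives T-N2G, whether the cells are 1 clone, or whether replicates were separate cultures, so p-values measure only the spread between these libraries.

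Newly made secretory and membrane proteins enter the ER through the Sec61 channel, are folded by chaperones and disulfide isomerases, and are sent back to the cytosol for destruction by ER-associated degradation when folding fails. When unfolded proteins accumulate, the sensors Ire1 (Ern1), Atf6 and Perk start the unfolded protein response, in which spliced Xbp1 and cleaved Atf6 raise ER chaperone and degradation genes, while Perk acts through Atf4 and Chop. Fibroblasts secrete collagen and other matrix proteins and use this machinery continuously.

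Library totals lay between 18863560 and 23095692 fragments. Nfe2l2, which encodes Nrf2, lay at 47.4 to 66.7 CPM (the count scaled to library size) in the 6 mock libraries and at 454 to 701 CPM in the 6 T-N2G libraries. For Mafg the ranges were 0.472 to 0.932 CPM and 95.7 to 161 CPM, so both parts of T-N2G followed the labels, while fragments summed per gene check nothing about the deletions. The Y-linked gene Ddx3y lay at 5.35 to 6.85 CPM in mock and 9.43 to 11.5 CPM in T-N2G libraries, and the part of any difference between the populations other than T-N2G in the results was not tested. The 11 fibroblast markers summed to 3621 to 4993 FPKM (the count scaled to transcript length and library size) in each library, and all but Lum exceeded 1 FPKM. The sum was 4229 to 4773 FPKM in mock DEM and 3621 to 4189 FPKM in T-N2G DEM, and its part in the results was not tested. Of the markers of other cells, 5 of 6 epithelial, 4 of 5 immune, 4 of 5 endothelial, 4 of 5 muscle and 5 of 5 secretory genes stayed under 1 FPKM in every library, and the epithelial exception was Krt19 at means of 66.0 to 101 FPKM. In bulk RNA fewer cells of a type and less RNA per cell cannot be told apart.

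Promoter windows are shown first, because some of the members hold there a regulatory sequence that the choice of genes did not use. RefSeq windows of 250 bases before the transcription start were found for 29 of the 35 members, 2 of them by a synonym, on GRCm38.p6, while the fragment counts are on mm9 and no coordinate is carried between the builds. The ER stress response element (ERSE, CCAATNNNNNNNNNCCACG, searched on both strands) is the sequence through which Atf6 and spliced Xbp1 act, and it was defined on promoters of ER chaperone genes, so its presence in them is background. It was found in 10 of 29 members (34.5%) and in 35 of all 27025 genes with windows of the same length (0.13%). The 10 were Calr, Canx, Creld2, Derl3, Dnajc3, Ero1lb, Hsp90b1, Hspa5, Pdia6 and Syvn1. ERSE-II (ATTGGNCCACG), a shorter form, was found in 1 member, Herpud1, and in 0.037% of all genes with windows. The windows of Hspa5, Calr and Dnajc3 with an ERSE, and that of Herpud1 with ERSE-II, are printed 5′ to 3′ on the gene's strand. Capitals mark the fixed letters of a matched ERSE or ERSE-II and, in Herpud1, of a CARE (TGATGNAA, an element bound by Atf4 with C/EBP partners).

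Hspa5, chr2:34771840-34772089, plus strand: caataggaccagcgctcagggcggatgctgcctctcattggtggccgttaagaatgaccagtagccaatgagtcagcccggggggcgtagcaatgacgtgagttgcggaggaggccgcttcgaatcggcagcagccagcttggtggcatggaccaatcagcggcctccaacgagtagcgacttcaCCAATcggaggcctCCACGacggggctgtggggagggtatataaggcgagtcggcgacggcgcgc
Calr, chr8:84846932-84847181, minus strand: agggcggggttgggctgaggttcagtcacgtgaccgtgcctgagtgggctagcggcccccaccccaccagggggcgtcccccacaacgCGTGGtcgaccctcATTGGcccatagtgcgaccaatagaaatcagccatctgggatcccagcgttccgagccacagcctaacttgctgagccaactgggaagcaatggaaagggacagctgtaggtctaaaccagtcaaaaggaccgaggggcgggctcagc
Dnajc3, chr14:118937682-118937931, plus strand: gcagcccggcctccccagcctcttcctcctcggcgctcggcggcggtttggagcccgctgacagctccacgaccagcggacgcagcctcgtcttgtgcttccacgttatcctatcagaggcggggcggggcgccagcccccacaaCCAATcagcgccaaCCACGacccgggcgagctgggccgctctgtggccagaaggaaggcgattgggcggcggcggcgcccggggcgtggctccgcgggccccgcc
Herpud1, chr8:94386179-94386428, plus strand: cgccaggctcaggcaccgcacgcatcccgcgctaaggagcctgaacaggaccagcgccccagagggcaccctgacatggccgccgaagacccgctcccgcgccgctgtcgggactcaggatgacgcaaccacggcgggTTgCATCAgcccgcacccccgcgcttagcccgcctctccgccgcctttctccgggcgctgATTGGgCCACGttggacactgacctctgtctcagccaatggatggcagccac

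The ERSE of Hspa5 began 65 bases before the start and that of Dnajc3 105 bases before it, and the Calr match lay on the opposite strand at 162 bases. In the Herpud1 window ERSE-II lay at 52 bases and CARE, on the opposite strand, at 112 bases, so this member held letters of both an Atf6 and Xbp1 type and an Atf4 type of element. CARE was also found in Txndc5, 2 of 29 members (6.90%) against 3.91% of all genes with windows. The unfolded protein response element UPRE (TGACGTGG) was found in 1 member, Txndc5, against 0.603% of all genes with windows. The antioxidant response element ARE (TGACNNNGC), the core through which Nrf2 with small Maf acts, was found in Calr, Ern1, Herpud1, Pdia3, Sec61b and Txndc5. These were 6 of 29 (20.7%) against 11.5% of all genes with windows, and in Txndc5 the ARE match overlapped the UPRE match. A match gives letters in a window and no binding, and for Dnajc3 and Herpud1 the first transcribed bases of the RefSeq entry were not found in a transcript of the other annotation used here.

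The members spanned a wide range of levels, compared per length in FPKM. In mock vehicle Calr stood highest at a mean of 1412 FPKM, followed by Hsp90b1 at 643, Hspa5 at 592, P4hb at 469 and Pdia3 at 379 FPKM. The ranges of Hsp90b1 (610 to 695 FPKM) and Hspa5 (505 to 691 FPKM) overlapped, while Calr, P4hb and Pdia3 were apart from their neighbours. Luminal chaperones and isomerases thus filled the top of the order, and the regulators lay lower, Xbp1 at 39.5, Atf6 at 17.8 and Ern1 at 8.53 FPKM. Ero1lb, the oxidase known from pancreas, was at 4.14 FPKM and Derl3 at 0.140 FPKM.

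**Figure D1:**
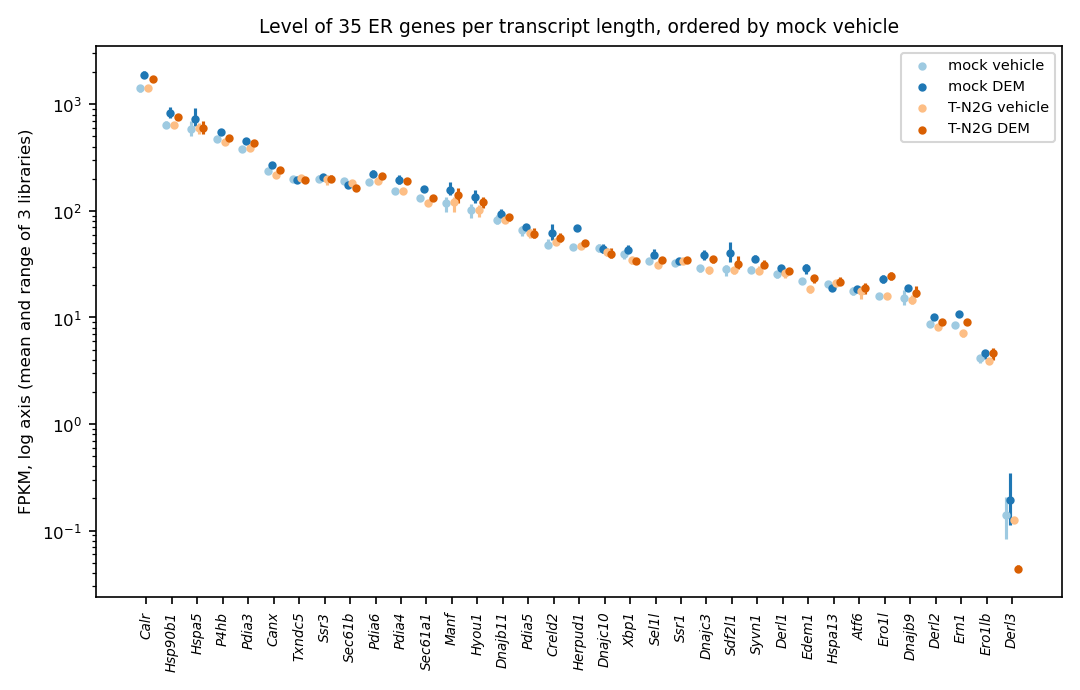
Level of all 35 members in FPKM on a log axis, ordered by mock vehicle. Points are means and lines the range of the 3 libraries of each group, from Calr at 1412 FPKM to Derl3 at 0.140 FPKM in mock vehicle.

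The first question was what DEM did to these genes in mock cells, which have no small Maf protein and no T-N2G. Of the 34 tested members 14 rose and 0 fell at an adjusted p under 0.05 (edgeR's quasi-likelihood test, Benjamini-Hochberg over the whole table), against 13.9% of all tested genes called, 7.76% higher and 6.18% lower. With the replicate number in the fit as a block the counts were 24 and 0, against 42.8% of all genes called, 20.9% higher and 21.9% lower. The median log2 fold change of the members was 0.25, against -0.01 over all genes, and 30 of 34 were above 0. DESeq2 called 17 higher and 0 lower, against 1150 and 962 of the 12469 tested genes. Before adjustment 21 members, in either direction, had p under 0.05. The share of all tested genes with unadjusted p under 0.05 is not given here or for the comparisons below. Such counts therefore show no excess over the background. The 3 DEM libraries lay above the 3 vehicle libraries in 19 members and below them in 2, Hspa13 and Sec61b, against 33.5% of all genes without overlap, 17.2% above and 16.3% below.

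Among the genes of ER-associated degradation 4 of 6 tested rose, and all 6 with the block. Herpud1, which encodes a membrane protein that assembles the Hrd1 ubiquitin ligase complex, stood at 73.8, 77.1 and 82.3 CPM in mock vehicle and at 119.3, 113.0 and 115.5 CPM in mock DEM. No DEM library came near the vehicle libraries, and the fold of 1.49 (log2 0.58 ± 0.06 SE, n = 3 against 3, adjusted p = 0.000598) was the largest of the 34 members. Edem1, which extracts misfolded glycoproteins for degradation, was at 126.3, 127.2 and 122.3 CPM in vehicle and 181.8, 167.3 and 146.1 CPM in DEM (log2 0.40 ± 0.09, adjusted p = 0.0137, or 0.0564 without mock DEM replicate 1). Syvn1, the Hrd1 ligase itself, rose by log2 0.34 ± 0.09 (adjusted p = 0.0268) and Derl2, a Derlin, by 0.23 ± 0.06 (adjusted p = 0.0356). Sel1l, the adaptor of Hrd1, at 0.21 ± 0.07 (0.11 without mock DEM replicate 1), and Derl1 at 0.19 ± 0.09 were called with the block only.

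Among the isomerases and oxidases 5 of 8 rose, with and without the block. Ero1l, the oxidase that hands disulfides to protein disulfide isomerase, was at 68.6, 67.3 and 69.1 CPM in vehicle and at 90.2, 106.3 and 95.9 CPM in DEM. The groups stood far apart, a 1.43-fold rise (log2 0.51 ± 0.08, adjusted p = 0.00253). Pdia4 rose by log2 0.35 ± 0.08 (adjusted p = 0.0138), Pdia3, the isomerase that works with calreticulin, by 0.25 ± 0.07, Pdia6 by 0.25 ± 0.07 and P4hb, protein disulfide isomerase itself, by 0.22 ± 0.06. The adjusted p of the latter 3 lay between 0.0314 and 0.0360. Ero1lb at 0.16 ± 0.12, Pdia5 at 0.10 ± 0.10 and Txndc5 at -0.03 ± 0.06 were not called in either fit.

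The lectin chaperone Calr, with the highest level of all members, was at 2640, 2315 and 2480 CPM in vehicle and 3635, 3208 and 3074 CPM in DEM. Every DEM library was above every vehicle library (1.33-fold, log2 0.42 ± 0.08, adjusted p = 0.00685). Its membrane-bound counterpart Canx had a log2 fold change of 0.19 ± 0.07, called with the block only. Dnajc3, a J protein of the lumen, was at 156.1, 136.6 and 149.6 CPM in vehicle and 215.4, 176.3 and 185.8 CPM in DEM, which did not overlap (log2 0.38 ± 0.09, adjusted p = 0.0162). Its call was lost without mock vehicle replicate 2 or mock DEM replicate 1, where the adjusted p reached 0.0675.

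Hspa5, which encodes BiP, the main Hsp70 of the ER and its classical stress marker, was at 1630, 1198 and 1368 CPM in vehicle and 2179, 1487 and 1499 CPM in DEM. Replicate 1 was high in both groups and the groups overlapped, although DEM was above vehicle in each of the 3 replicate numbers. The log2 fold change was 0.30 ± 0.17 (adjusted p = 0.253, or 0.000399 once the block was fitted, in a range of 4.06e-05 to 0.751 under the alternatives). Without mock DEM replicate 1 it fell to 0.09 ± 0.15, or to 0.20 ± 0.05 with the block (adjusted p = 0.00478). Hsp90b1, the Hsp90 of the ER, rose by log2 0.36 ± 0.09 (adjusted p = 0.0208). Hyou1, which exchanges the nucleotide of BiP, had 0.38 ± 0.14 and was called with the block only. Without mock DEM replicate 1 Hyou1 had 0.25, or 0.34 ± 0.05 with the block (adjusted p = 0.000104).

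The secreted or luminal stress proteins Sdf2l1 (log2 0.47 ± 0.16), Manf (0.40 ± 0.16) and Creld2 (0.35 ± 0.13) had fold changes as large as those of called members, with wider errors. Without mock DEM replicate 1 they fell to 0.25, 0.25 and 0.18 in the fit without the block. With the block they were then 0.32, 0.35 and 0.26 (adjusted p = 0.00968, 0.00118 and 0.00129). All 3 were called with the block and not without it, at adjusted p of 0.0753, 0.118 and 0.0866. Dnajb9 (0.28 ± 0.13) and Dnajb11 (0.18 ± 0.10), J proteins that serve BiP, were also called with the block only. In the fit without the block Dnajb9 fell to 0.17 without mock vehicle replicate 1 and Dnajb11 to 0.08 without mock DEM replicate 1. With the block Dnajb11 was then at 0.13 (adjusted p = 0.0667). Dnajc10, a reductase, had -0.01 ± 0.11 and was called in neither fit.

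Of the sensors and transcription factors Ern1, the Ire1 kinase and nuclease, rose from 31.8, 31.7 and 34.1 to 39.6, 41.3 and 43.3 CPM, with no overlap (log2 0.35 ± 0.07, adjusted p = 0.00832). Xbp1, whose mRNA Ire1 splices, was at 84.9, 72.4 and 85.0 CPM in vehicle and 97.6, 83.2 and 84.7 CPM in DEM, groups that overlapped (log2 0.13 ± 0.09, adjusted p = 0.341). Fragments summed per gene do not separate spliced from unspliced Xbp1 or cleaved from intact Atf6, so these values measure no activity of either. Atf6 had a log2 fold change of 0.04 ± 0.11 (adjusted p = 0.826). In the translocon Sec61a1, the channel subunit, rose by log2 0.27 ± 0.06 (adjusted p = 0.0175), while its partner Sec61b had -0.11 ± 0.06 and the TRAP subunits Ssr1 and Ssr3 had 0.06 ± 0.06 and 0.04 ± 0.08, none of them called in either fit. The Hsp70-like Hspa13 had -0.14 ± 0.08 and was not called either.

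Mock DEM replicate 1 was the highest of its group in 23 of 34 members, and the number of members called higher was 5 without it, 6 without mock vehicle replicate 2 and 9 without mock vehicle replicate 3. With the block the number was 23 to 25 whichever library was left out. In the order named, 521, 662 and 524 of all tested genes were called higher without the block, against 967 with all libraries. With the block 2155 to 2303 of all tested genes were higher, against 2603 with all libraries. The calls of Herpud1, Ero1l, Calr, Ern1 and Pdia4 were kept whichever of the 6 libraries was left out. That of Sec61a1 was lost without mock vehicle replicate 2 or mock DEM replicate 1 or 2, and that of Hsp90b1 without mock vehicle replicate 2 or 3 or mock DEM replicate 1. Those of Syvn1, P4hb, Pdia3, Pdia6 and Derl2 were lost on leaving out any of 4 or 5 of the 6 libraries, at adjusted p of up to 0.138. Members with an ERSE in the windows shown above had 5 of 9 tested called higher and a median log2 fold change of 0.34, and those with a window and no ERSE 8 of 19 and 0.22. This is a description of few genes and was not tested.

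**Figure D2:**
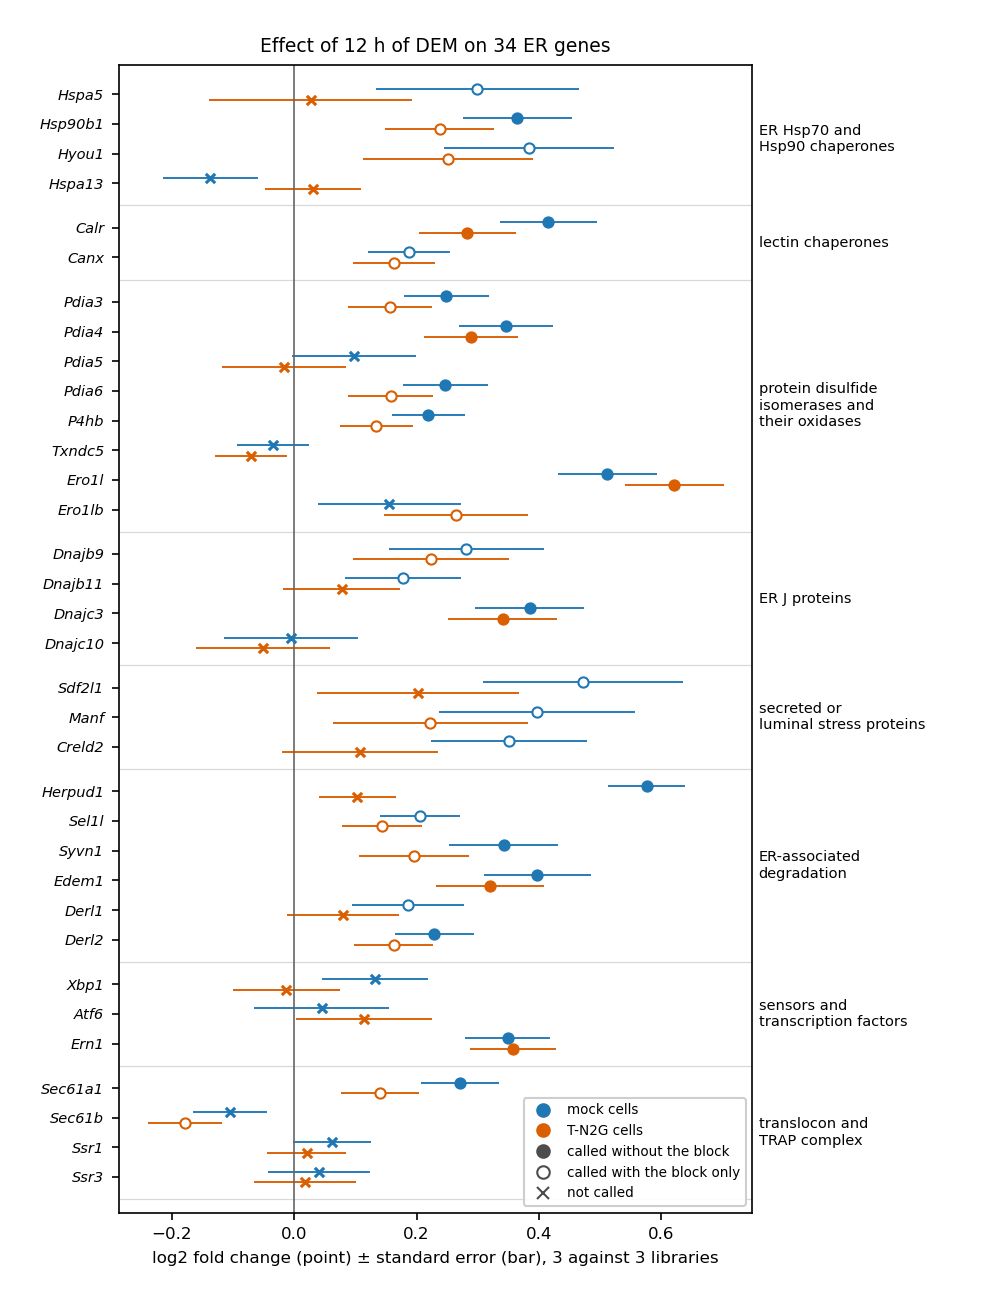
Log2 fold change of DEM over vehicle (x axis) with its standard error for 34 members (y axis, by role) in mock and T-N2G cells. Filled points were called without the block, open points with the block only and crosses in neither fit, and Herpud1 shows the widest gap between the cell populations, at 0.58 in mock and 0.10 in T-N2G cells.

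**Figure D3:**
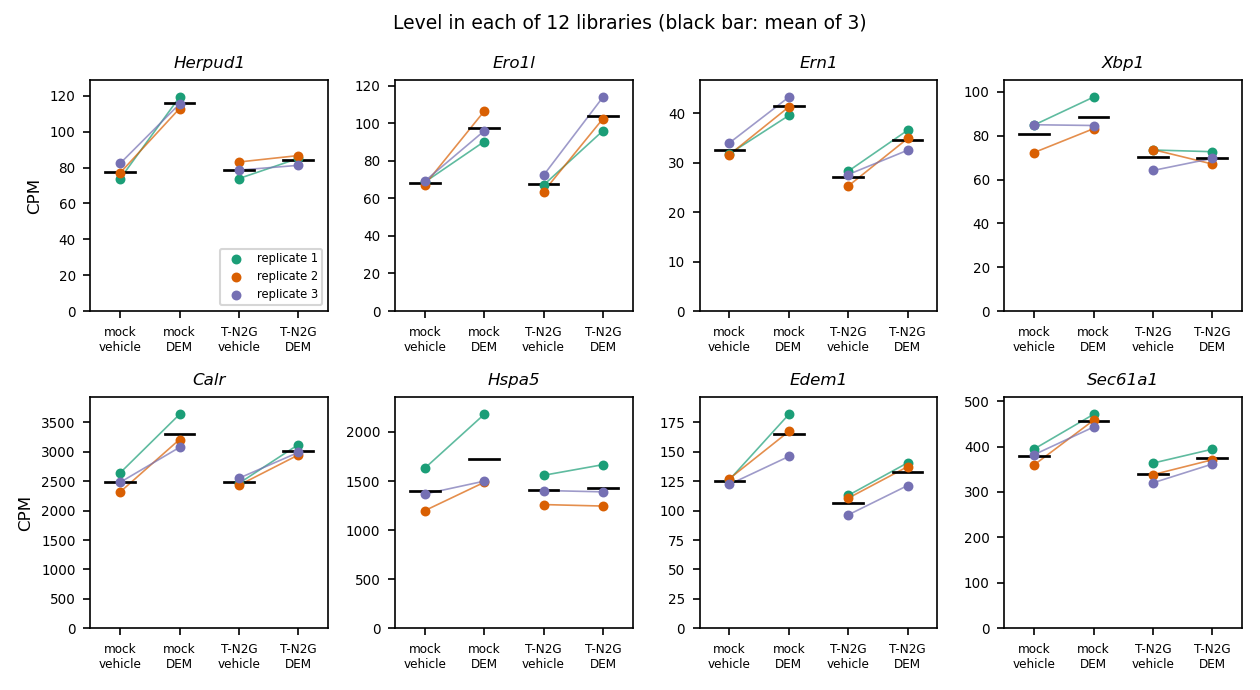
CPM of 8 members in each of the 12 libraries, coloured by replicate number, with lines that join vehicle to DEM of the same number and bars at the group means. Herpud1 reaches 113.0 to 119.3 CPM in mock DEM and stays at 81.3 to 86.7 CPM in T-N2G DEM, while Hspa5 is high in replicate 1 of every group.

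The same question in T-N2G cells gave 6 members called higher and 0 lower, against 17.6% of all tested genes called, 10.1% higher and 7.55% lower. With the block 19 were higher and 1, Sec61b, was lower (45% of all genes called, 22.8% higher and 22.2% lower), and 10 were higher with the block when T-N2G vehicle replicate 1 was left out. Of all tested genes 2227 were then higher, against 2846 with all libraries. DESeq2 called 7 higher and 1 lower, against 1371 and 1085 of the 12469 tested genes. Before adjustment 15 members, in either direction, had p under 0.05. The median log2 fold change was 0.15, against 0.00 over all genes, and 29 of 34 members were above 0. DEM libraries did not overlap vehicle libraries in 13 members that were higher and 1 that was lower (33.8% of all genes without overlap, 18.2% higher and 15.6% lower).

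Ero1l had the largest fold of the members here, from 67.0, 63.6 and 72.3 CPM in T-N2G vehicle to 96.0, 102.4 and 113.8 CPM in T-N2G DEM. The 1.54-fold rise (log2 0.62 ± 0.08, adjusted p = 0.000506) stood beside the 1.43-fold rise in mock cells, and the difference between them, 0.11 ± 0.11, was not called. Ern1 rose from 28.3, 25.3 and 27.6 to 36.6, 34.9 and 32.6 CPM (log2 0.36 ± 0.07, adjusted p = 0.00584). These 2 calls were kept whichever of the 6 libraries was left out. Dnajc3 (0.34 ± 0.09), Edem1 (0.32 ± 0.09), Pdia4 (0.29 ± 0.08) and Calr (0.28 ± 0.08) also rose, at adjusted p of 0.0218 to 0.0294, but these calls depended on single libraries. Edem1 was lost without T-N2G vehicle replicate 3 or T-N2G DEM replicate 1 or 2, Dnajc3 without any of 4 libraries, Pdia4 without any of 5 and Calr without any of the 6, with adjusted p of 0.0557 to 0.0974. The number of members called higher was 2 without T-N2G DEM replicate 1, 3 without T-N2G DEM replicate 3 or any of the T-N2G vehicle libraries, and 4 without T-N2G DEM replicate 2. Of all tested genes 756 to 962 were called higher in these fits, against 1254 with all libraries.

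Other members that rose in mock cells were not called in T-N2G cells without the block. Herpud1 was at 73.9, 83.1 and 78.6 CPM in T-N2G vehicle and 85.2, 86.7 and 81.3 CPM in T-N2G DEM. The groups overlapped, and the log2 fold change was 0.10 ± 0.06 (adjusted p = 0.283, or 0.113 once the block was fitted, in a range of 0.0634 to 0.629 under the alternatives). Hspa5 was at 1558, 1260 and 1404 CPM and then at 1667, 1245 and 1390 CPM, which gave 0.03 ± 0.17 (adjusted p = 0.929). DEM was higher for Hspa5 in replicate 1 alone. Xbp1 at -0.01 ± 0.09 and Atf6 at 0.11 ± 0.11 were not called in either fit. Among members called with the block only were Hsp90b1 (0.24 ± 0.09), Hyou1 (0.25 ± 0.14), Canx (0.16 ± 0.07), Pdia3 (0.16 ± 0.07), Manf (0.22 ± 0.16) and Sec61a1 (0.14 ± 0.06). In the fit without the block, leaving out 1 library took Hyou1 to 0.15 (T-N2G vehicle replicate 2) or 0.16 (T-N2G DEM replicate 1). Manf went to 0.09 or 0.11 without the same libraries, and Sec61a1 to 0.09 (T-N2G vehicle replicate 3). Sec61b, lower with the block, was at 61.7, 66.8 and 64.3 CPM in vehicle and 55.7, 59.9 and 54.7 CPM in DEM (log2 -0.18 ± 0.06, adjusted p = 0.0615).

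Whether the effect of DEM differed between the cell populations was tested as the difference of the 2 log2 fold changes. Herpud1 was the 1 member called, lower, with or without the block, against 0.433% of all genes called, 0.417% higher and 0.016% lower (2.8%, 1.82% and 0.978% with the block). Its DEM effect was smaller in T-N2G than in mock cells by -0.47 ± 0.09 on the log2 scale (n = 3 in each of 4 groups, adjusted p = 0.0426, or 0.000826 once the block was fitted, in a range of 0.000173 to 0.651 under the alternatives). The difference had this sign in each of the 3 replicate numbers and lay between -0.53 and -0.43 over all alternatives. Without the block the call was lost when any of 11 of the 12 libraries was left out, the exception being mock vehicle replicate 3, while with the block it was kept without each of them. In the other direction edgeR, with or without the block, and DESeq2 called 0 members, and before adjustment Herpud1 alone had p under 0.05. Members' differences had a median of -0.08 and were below 0 in 29 of 34, or -0.03 and 25 without mock DEM replicate 1. Hspa5 had -0.27 ± 0.23 (adjusted p = 1.00, or 0.0746 with the block), Xbp1 -0.14 ± 0.12, Atf6 0.07 ± 0.16 and Ern1 0.01 ± 0.10. Both DEM effects enter each difference, so a smaller difference that misses the threshold does not show that the populations responded alike.

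T-N2G and mock cells were next compared under DEM, a comparison that shares its mock DEM libraries with the DEM effect in mock cells. Of 34 members 0 were called higher and 2 lower, Herpud1 and Sec61a1, against 3.71% of all tested genes called, 2.61% higher and 1.11% lower. With the block 1 was higher and 14 were lower (19.6% of all genes called, 10.3% higher and 9.32% lower). DESeq2 called 0 higher and 6 lower, against 444 and 258 of the 12469 tested genes, and before adjustment 9 members had p under 0.05. The median log2 fold change was -0.14, against 0.00 over all genes, and 29 of 34 members were below 0. Much of this rested on mock DEM replicate 1, without which the median was -0.05 with 24 of 34 below 0, or -0.08 with 28 below 0 and 9 called lower with the block. Of all tested genes 890 were then called lower with the block, against 1162 with all libraries. In 10 members every T-N2G library was below every mock library, and in 0 above (19.7% of all genes without overlap, 9.35% below and 10.3% above).

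Herpud1, at 81.3 to 86.7 CPM in T-N2G DEM against 113.0 to 119.3 CPM in mock DEM, was lower by -0.46 ± 0.06 on the log2 scale (adjusted p = 0.000949). The call was kept whichever of the 6 libraries was left out and was lost in replicates 1 and 2 alone, where the log2 fold change was -0.43 and the adjusted p 0.0617. Sec61a1 was at 470.7, 457.7 and 442.8 CPM in mock DEM and 394.1, 370.9 and 361.4 CPM in T-N2G DEM. The groups did not overlap (log2 -0.28 ± 0.06, adjusted p = 0.0273), but the call was kept only without T-N2G DEM replicate 1 and lost on leaving out any of the other 5 libraries, at adjusted p of up to 0.108.

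Xbp1 and Edem1 were called lower with the block only. Xbp1 was at 97.6, 83.2 and 84.7 CPM in mock DEM and 72.7, 67.1 and 69.7 CPM in T-N2G DEM, with no overlap (log2 -0.34 ± 0.09, adjusted p = 0.0547, or 0.000578 once the block was fitted, in a range of 0.000578 to 0.292 under the alternatives). Edem1, at 140.7, 137.4 and 121.4 CPM in T-N2G DEM, was below all 3 mock DEM libraries given above (log2 -0.31 ± 0.09, adjusted p = 0.0856). Ern1 was also lower with the block only, at -0.25 ± 0.07 (adjusted p = 0.0718, or 0.00700 once the block was fitted, in a range of 0.00626 to 0.636 under the alternatives). The same held for Hspa5 (-0.26 ± 0.17), Pdia5 (-0.21 ± 0.10) and P4hb (-0.18 ± 0.06). For Hspa5 the value without mock DEM replicate 1 was -0.06 ± 0.15, or -0.17 ± 0.05 with the block (adjusted p = 0.0253). Further members called lower with the block were Canx, Derl2, Dnajc10, Hyou1, Sdf2l1 and Sel1l, between -0.31 and -0.14. Without mock DEM replicate 1 all of these but Dnajc10 lost the call with the block, at adjusted p of 0.0686 to 0.214, and without the block Hyou1 was at -0.01, Sel1l at -0.07 and Sdf2l1 at -0.09. Dnajc10, in the fit without the block, was at -0.09 when mock DEM replicate 2 was left out and at -0.10 when it was T-N2G DEM replicate 3. Hspa13 was higher with the block, from 79.2, 71.4 and 69.8 CPM in mock DEM to 81.5, 78.6 and 94.2 CPM in T-N2G DEM, where the groups overlapped (log2 0.21 ± 0.08, adjusted p = 0.218, or 0.12 on the log2 scale without T-N2G DEM replicate 3). Without the block, leaving out mock DEM replicate 1 or 2 or T-N2G DEM replicate 2 or 3 left 1 member lower. In the order named, 104, 92, 129 and 86 of all tested genes were then lower, against 138 with all libraries.

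**Figure D4:**
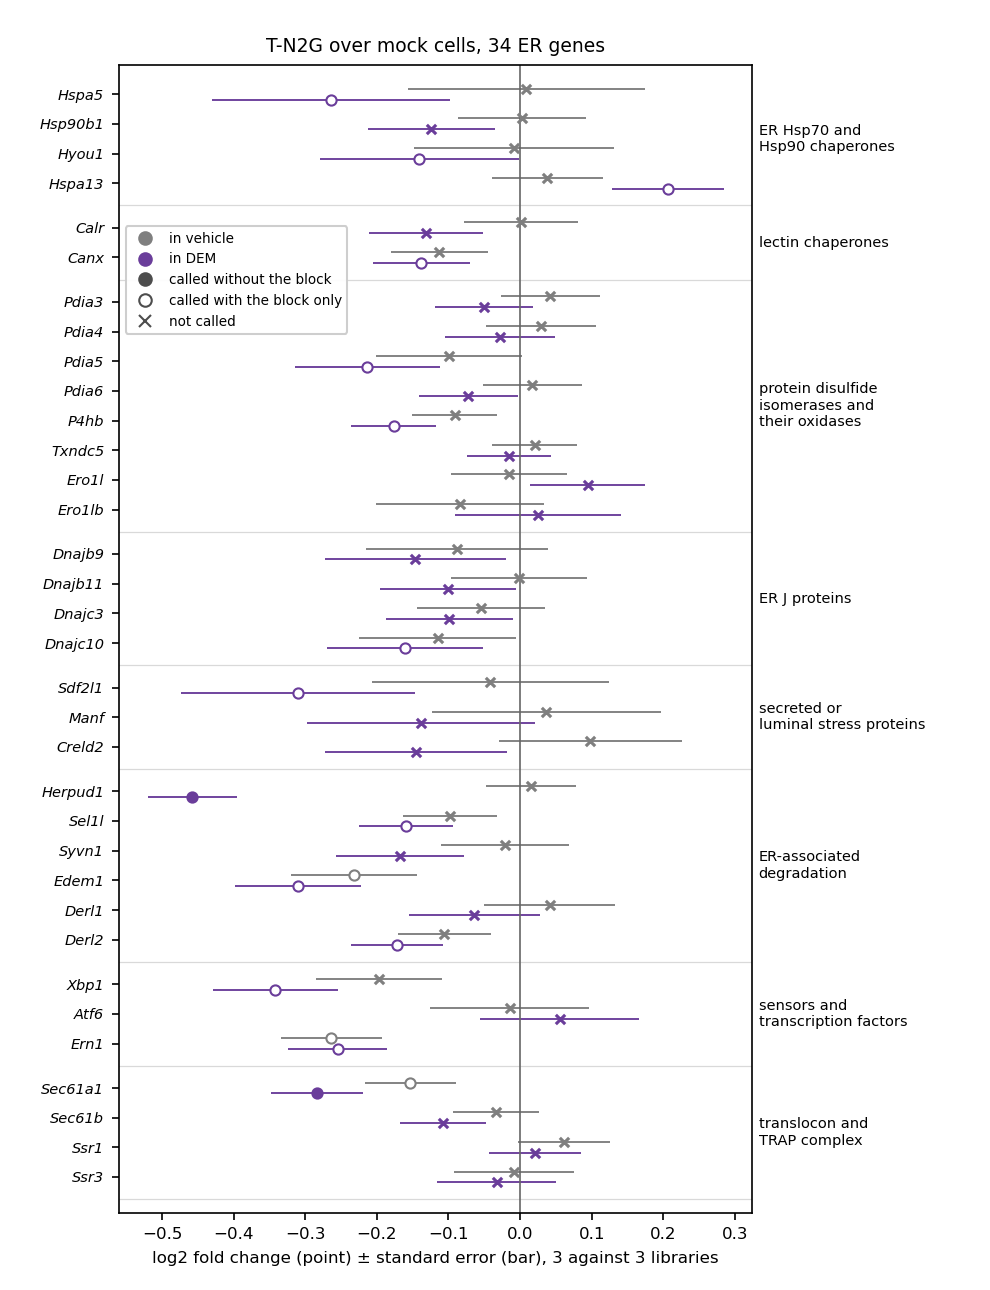
T-N2G over mock cells for 34 members (y axis, by role) in vehicle and in DEM, as log2 fold change (x axis) with its standard error; filled, open and crossed points are called without the block, with it only and in neither fit. In vehicle the values scatter about 0 except for Xbp1, Ern1, Edem1 and Sec61a1, and in DEM 29 of 34 lie below 0, with Herpud1 at -0.46.

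In vehicle 0 members were called in either direction, against 0.313% of all tested genes called, 0.305% higher and 0.00802% lower. DESeq2 called 0 members as well, against 82 of the 12469 tested genes higher and 26 lower. Before adjustment 4 members had p under 0.05. With the block edgeR called 0 higher and 3 lower (6.3% of all genes called, 3.06% higher and 3.24% lower). The members' median log2 fold change was -0.01 (-0.07 without mock vehicle replicate 2), against 0.00 over all genes, and 32 of 34 were within 0.2 of 0. T-N2G libraries were below all mock libraries in 5 members, Canx, P4hb, Sel1l, Edem1 and Ern1, and above them in 0 (10.2% of all genes without overlap, 5.09% below and 5.11% above). The 3 members called with the block were Ern1, Edem1 and Sec61a1. Ern1 lay at 31.7 to 34.1 CPM in mock and 25.3 to 28.3 CPM in T-N2G vehicle (log2 -0.26 ± 0.07, adjusted p = 0.266, or 0.0194 once the block was fitted, in a range of 0.0194 to 1.00 under the alternatives). Edem1 lay at 122.3 to 127.2 CPM in mock and at 113.0, 110.6 and 96.4 CPM in T-N2G vehicle (log2 -0.23 ± 0.09), and Sec61a1 had -0.15 ± 0.06. Fitted with the block, the call of Edem1 was kept whichever of the 6 libraries was left out, and those of Ern1 and Sec61a1 were each lost without any of 4 libraries. These are the genes of the Ire1 sensor, glycoprotein extraction and the channel, and they were also lower in DEM, in the values given above. Herpud1 (0.01 ± 0.06), Hspa5 (0.01 ± 0.17) and Atf6 (-0.01 ± 0.11) were level in vehicle to within their errors, and Xbp1 had -0.20 ± 0.09 and was not called in either fit.

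The neighbouring ER genes, 132 tested of 137 listed, were examined by function. DEM raised 26 and lowered 3 of them in mock cells (57 and 10 with the block) and raised 16 and lowered 5 in T-N2G cells (54 and 12). The share raised was 19.7% in mock cells, against 7.76% of all tested genes, and 12.1% in T-N2G cells, near the 10.1% of all tested genes. The share lowered was 2.27% and 3.79%, against 6.18% and 7.55%. With the block 43.2% and 40.9% were raised, against 20.9% and 22.8% of all tested genes. Lowered with the block were 7.58% and 9.09%, against 21.9% and 22.2%. The median log2 fold changes of the neighbouring genes were 0.09 and 0.06, below the members' 0.25 and 0.15. T-N2G over mock cells gave 0 called in vehicle, with 5 at p under 0.05 before adjustment. With the block 2 were higher and 5 lower, 1.52% and 3.79% of them, near the 3.06% and 3.24% of all tested genes. In DEM 3 were higher and 5 lower, 2.27% and 3.79% of them, against 2.61% and 1.11% of all tested genes. With the block there were 9 and 30, 6.82% and 22.7% of them, against 10.3% and 9.32%.

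The 7 genes listed here under the Perk branch and Chop targets moved most. Fragments summed per gene measure no activity of Perk, and what drove these genes was not tested. DEM raised 5 of 7 in mock cells, with a median log2 fold change of 0.97. In T-N2G cells it raised 2 of 7, with a median of 0.43. With the block it raised 7 and 6. Of all tested genes 7.76% rose in mock and 10.1% in T-N2G cells, or 20.9% and 22.8% with the block. Ddit3, which encodes Chop, was at 7.05, 6.70 and 10.0 CPM in mock vehicle and 18.8, 16.0 and 17.7 CPM in mock DEM (log2 1.14 ± 0.15, adjusted p = 0.00118). In T-N2G cells it went from 7.67, 7.63 and 8.69 to 11.8, 11.2 and 13.6 CPM (log2 0.61 ± 0.15, adjusted p = 0.0158), a call lost without T-N2G vehicle replicate 1 or 2 or T-N2G DEM replicate 3. The T-N2G DEM libraries thus lay above both vehicle groups and below mock DEM, and the difference of the DEM effects, -0.54 ± 0.21, was not called (adjusted p = 0.0545 with the block).

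Trib3, a pseudokinase induced by Chop, rose by log2 1.60 ± 0.14 in mock cells (adjusted p = 0.000155) and by 0.75 ± 0.13 in T-N2G cells (adjusted p = 0.00360). Chac1, which degrades glutathione, rose by 1.23 ± 0.14 in mock cells (adjusted p = 0.000598), and its 0.43 ± 0.14 in T-N2G cells was called with the block only. Atf4, the transcription factor of this branch, rose by 0.42 ± 0.08 in mock cells (adjusted p = 0.00746) and had 0.18 ± 0.08 in T-N2G cells, called with the block only. Differences of DEM effects in this list were called with the block only, 4 of 7 lower in T-N2G cells, against 0.978% of all tested genes. They were Chac1 (-0.80 ± 0.19), Trib3 (-0.85 ± 0.19), Atf3 (-1.43 ± 0.35) and Atf4 (-0.24 ± 0.12). Fitted with the block, the Atf3 call was lost without mock vehicle replicate 2, T-N2G vehicle replicate 1 or 3, or T-N2G DEM replicate 2. Its adjusted p was then 0.0515 to 0.0672, and without mock DEM replicate 2 the difference was -1.04. Atf3 was at 4.81, 9.48 and 4.88 CPM in mock DEM, so replicate 2 alone stood high, and its rise in mock cells (log2 0.97 ± 0.23) was lost without mock vehicle replicate 1 or 2 and was 0.57 ± 0.15 without mock DEM replicate 2 (adjusted p = 0.0404). It stood at 2.56, 2.75 and 2.63 CPM in T-N2G vehicle and, below all of these, at 1.83, 1.97 and 1.94 CPM in T-N2G DEM (log2 -0.46 ± 0.26, adjusted p = 0.249, called in neither fit). In T-N2G over mock cells under DEM 3 of the 7 were called lower, Atf3, Chac1 and Trib3, and 0 higher. Of all tested genes 1.11% were lower and 2.61% higher. Cebpb went the other way there, at 30.9, 43.7 and 48.5 CPM in mock DEM and 61.5, 70.9 and 54.2 CPM in T-N2G DEM (log2 0.60 ± 0.22, called higher with the block only). In vehicle Cebpb was at 22.0, 33.6 and 38.9 CPM in mock and 30.1, 45.1 and 43.3 CPM in T-N2G cells.

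**Figure D5:**
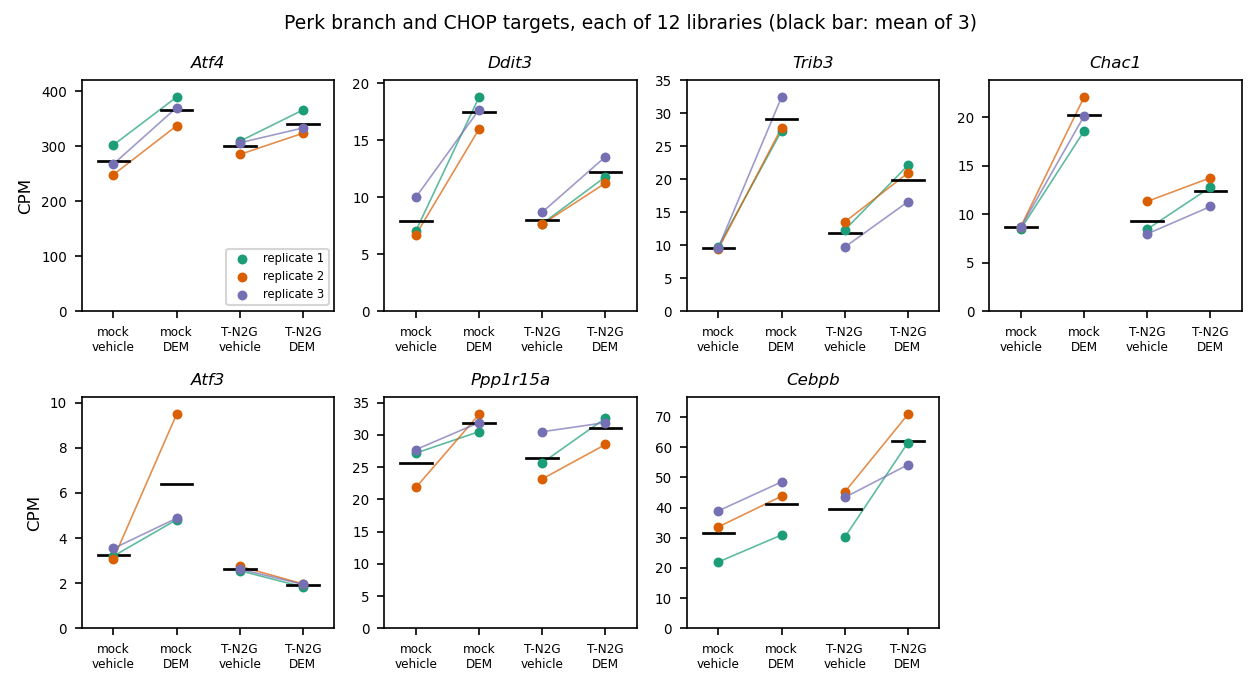
CPM of the 7 genes listed under the Perk branch and Chop targets in each of the 12 libraries, coloured by replicate number, with lines that join vehicle to DEM of the same number and bars at the group means. Ddit3, Trib3 and Chac1 reach their highest values in mock DEM, and Cebpb in T-N2G DEM.

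Among the other components of ER-associated degradation DEM raised 5 of 16 in mock and 6 of 16 in T-N2G cells. Of all tested genes it raised 7.76% and 10.1%. Rhbdd1, a rhomboid protease of the ER, rose by log2 0.93 ± 0.06 in mock cells (adjusted p = 2.11e-05) and 0.74 ± 0.06 in T-N2G cells (adjusted p = 2.33e-05), larger folds than that of any member. Herpud2, the paralog of Herpud1, rose by 0.44 ± 0.07 in mock and by 0.49 ± 0.07 in T-N2G cells (adjusted p = 0.00233 and 0.000674). The difference of these effects was 0.06 ± 0.09 and was not called, beside the -0.47 of Herpud1. Vcp, the ATPase that pulls substrates from the membrane, was higher under DEM in the T-N2G cells (0.27 ± 0.05 over mock, adjusted p = 0.0135), a call lost without mock DEM replicate 2 or 3 or T-N2G DEM replicate 3.

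Genes of folding and of exit from the ER followed. Sil1, an exchange factor of BiP, rose by log2 0.57 ± 0.10 in mock and 0.70 ± 0.10 in T-N2G cells, Dnajb14, a J protein of the ER membrane, by 0.45 ± 0.08 and 0.55 ± 0.08, and Fkbp2, a prolyl isomerase, by 0.33 ± 0.06 and 0.30 ± 0.06. Of 18 genes of COPII coats and ER exit 7 rose and 1 fell in mock cells, against 7.76% and 6.18% of all tested genes. In T-N2G cells 2 rose and 1 fell, near the 10.1% and 7.55% of all tested genes. Kdelr3, a retrieval receptor for luminal chaperones, rose by 0.55 ± 0.12 in mock cells (adjusted p = 0.0128). Sec24d, a cargo adaptor of COPII, rose by 0.45 ± 0.06 in T-N2G cells (adjusted p = 0.000499) and exceeded its level in mock cells under DEM (0.39 ± 0.06, adjusted p = 0.00182). Fkbp10, a collagen chaperone, was lower there (-0.29 ± 0.05, adjusted p = 0.00444). Among 20 tested genes of translocation and signal peptide cleavage 1, Sec11c, rose and 2 fell under DEM in mock cells (6 and 4 with the block). Of all tested genes 7.76% rose and 6.18% fell (20.9% and 21.9% with the block). In T-N2G cells 0 rose and 3 fell (4 and 4), against 10.1% and 7.55% (22.8% and 22.2%). The signal recognition particle subunits Srp72 and Srp68 fell in both populations. Srp72 had log2 fold changes of -0.41 ± 0.05 in mock cells (adjusted p = 0.00116) and -0.37 ± 0.05 in T-N2G cells (adjusted p = 0.000786). The Srp68 call in mock cells, at -0.19 ± 0.05, was lost on leaving out any of the 6 libraries.

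Some member values carry a limit of counting. Exons of Hsp90b1, Syvn1, Derl2, Dnajb9, Txndc5, Pdia3 and Pdia6 overlap a gene on the opposite strand in the annotation used here for neighbours, by 14 to 270 bases with genes that are in the table. Sec61a1 (388 bases) and Manf (166 bases) overlap opposite-strand genes that are absent from it. On the same strand Manf and Pdia4 each share 14 bases with a gene in the table, and Hsp90b1 shares 63 and 133 bases with genes absent from it. The library kit is strand-specific per the labels, but the strand setting of the counting is not given in the sources used here, so reads of such neighbours cannot be told apart.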

How the data were processed

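The authors deposited 1 table with an estimated count of fragments and an FPKM value for each of 24318 genes in each of 12 libraries, per the file headers. Of the deposited estimated counts 98.3% were exactly whole, with no tolerance, and 2 further value columns, scaled fragments, were not used. The submitters' processing notes name the build mm9 and the programs Cuffdiff 2.1.1, TopHat2 2.0.8b and bcl2fastq 2.16.0.10. Their roles, the gene annotation and the strand setting are not given in the sources used here. The FPKM values, which the authors scaled by length and library size, were used for levels between genes and for an alternative test.

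Rounded counts were tested with edgeR 4.0.16 under R 4.3.3. The filter filterByExpr (minimum count 10, total 15) left 12469 genes, and TMM factors were 0.980 to 1.028. All 12 libraries entered 1 quasi-likelihood fit with 4 group coefficients, and 5 contrasts were tested. The common coefficient of variation estimated by edgeR came to 0.110, on 8 residual degrees of freedom. A call is a Benjamini-Hochberg adjusted p under 0.05 over all genes, and standard errors are the absolute log2 fold change over the root of the F statistic. On simulated counts for T-N2G over mock cells in DEM (12381 genes) it recovered 18.0% of 1.25-fold, 72.9% of 1.5-fold and 93.9% of 2-fold changes, so members with small changes can be missed.

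Replicate numbers come from the titles, whose meaning is not given in the sources used here. After each group's mean log2(CPM + 0.5) was subtracted, r was 0.424 to 0.720 over 18 same-numbered pairs of libraries and -0.516 to 0.0583 over 36 others. The numbers were therefore taken to pair the libraries, and a fit with it as a block (common variation 0.0428, residual degrees of freedom 6) stands beside results that it changes. Library codes in the labels put replicates 1 and 2 in one series and replicate 3 in another.

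Alternatives were the block, DESeq2 1.42.0, its size factors in edgeR, no filter on low counts, limma 3.58.1 on log2(FPKM + 1) and log2(FPKM + 0.1), a fit of the compared groups alone, replicates 1 and 2 alone, and leaving out each library. Leaving out each library with the block was added after the data were seen. The members, the lists of other ER genes and the motifs were chosen with earlier results of these data known. Named in full are Hspa5, Herpud1, Xbp1, Atf6, Ern1 and, per contrast, up to 8 called members by smallest adjusted p, filled with members called with the block where fewer than 4 were called, and up to 3 called genes of each other list. Not every gene that this rule names is reported here. Other members are given by counts and short values, and other genes listed under the Perk branch were named after their values were seen. Promoter sequences are from RefSeq (GRCm38.p6), and motif letters were searched on both strands.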

Additional observations from a re-analysis of the deposited data

Results flagged for a closer look

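The DEM effect on Herpud1 differed between the cell populations by the test of the difference itself. It was 0.58 ± 0.06 on the log2 scale in mock cells and 0.10 ± 0.06 in T-N2G cells, a difference of -0.47 ± 0.09 (edgeR's quasi-likelihood test, adjusted p = 0.0426, or 0.000826 with the replicate block). Herpud1 was at 113.0 to 119.3 CPM in mock DEM and at 73.8 to 86.7 CPM in each of the other 9 libraries, so the 3 mock DEM libraries stood apart from all others. Without the block the call depended on 11 of the 12 libraries, as given in the report. What lies behind the difference was not tested. Groups of 3 libraries are too small for the test of single outlying libraries.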

How the results depend on the processing

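With the replicate block the number of members called lower in T-N2G cells was 3 in vehicle (0 without it) and 14 in DEM (2 without), and 1 was called higher in DEM (0 without). DEM raised 24 members in mock cells with the block (14 without), and in T-N2G cells it raised 19 (6 without) and lowered 1 (0 without). For named genes the block gave further calls, all in the direction of the fit without it. It turned no call, and not every call that it changed among the other ER genes is reported here. For the difference of DEM effects it called 2 of the 132 other ER genes higher and 4 lower (0 and 0 without it). These were 1.52% and 3.03% of them, against 1.82% and 0.978% of all tested genes. The 2 higher were Vcp and Sec24d.

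DESeq2 called 6 members lower in T-N2G cells in DEM, and 1 lower by DEM in T-N2G cells. Fitting the compared groups alone left 9 members higher by DEM in mock cells. Of all tested genes 617 were higher in that fit, against 967 when all 4 groups were fitted. For the difference of DEM effects, no filter, log2(FPKM + 0.1) and replicates 1 and 2 alone each left 0 members. Of all tested genes they called 52, 46 and 6 higher and 1, 3 and 0 lower. Replicates 1 and 2 alone gave 2 members higher by DEM in mock cells, 3 in T-N2G cells and 0 lower in T-N2G cells in DEM, and with the block 25, 16 and 15, with 2 lower for the difference. Over all tested genes the counts were 57, 305 and 22, against 967, 1254 and 138 with all libraries. With the block they were 2139, 2382 and 715, with 62 lower for the difference. The cause of these shifts was not tested, apart from fewer samples in the latter fits.

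Leaving out each library in turn gave 5 to 13 members higher by DEM in mock cells (23 to 25 with the block) and 0 lower (0 to 1). In T-N2G cells it gave 2 to 4 higher (10 without T-N2G vehicle replicate 1 to 18, and 17 without T-N2G DEM replicate 2) and 0 to 1 lower (0 to 1). T-N2G over mock cells in DEM gave 1 to 2 lower (9 without mock DEM replicate 1 to 20 without mock DEM replicate 3, and 11 without mock DEM replicate 2) and 0 higher (0 to 1), and in vehicle 0 lower (1 without replicate 3 of either group, up to 3). The difference of DEM effects gave 0 to 1 lower (1 to 3, with 3 without mock DEM replicate 3 and 2 without T-N2G vehicle replicate 1). Over all tested genes the same fits called 521 to 662 higher by DEM in mock cells (2155 to 2303 with the block). In T-N2G cells 756 to 962 were higher (2227 to 2400). T-N2G over mock cells gave 63 to 129 lower in DEM (791 to 1058) and 0 to 3 in vehicle (137 to 407). For the difference 1 to 3 were lower (79 to 129). Among named genes 2179 values under an alternative kept direction and side of the threshold, 277 passed it newly and 174 lost it, and 0 called values changed sign. Of 505 values of named members called in neither fit 46 had another sign. Derl3, with 1 to 8 fragments in each library, was the member whose depth allowed no test.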
